A study of Mus musculus with 7 samples.

Results

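Complement in the skin stroma was followed through 8 genes: C1ra and C1s1, C4b, C3, Cfb, Serping1, C3ar1 and C5ar1. They were taken by gene name from the deposited table, in which all 8 have a row among 25322 genes, and all 8 passed the filter on low values. Bulk RNA-seq was made from skin cells of mice on day 36, sorted for the red reporter tdTomato. The 3 controls carry ZNF750 wt/fl in 2 samples and ZNF750 wt/wt in the other, and the 4 knockouts (Zfp750_KO) carry ZNF750 fl/fl. Both groups carry 1 copy of a tamoxifen-inducible Cre driven by Lrig1 (Lrig1-CreERT2 +/- or Lrig1-CreER +/-), and both received 4-hydroxytamoxifen as pups, on days 4 to 7 or days 5 to 8. The Rosa26 genotype is +/- in every sample except 1 knockout, labelled Rosa26 -/-. Lrig1 marks stem cells of the upper hair follicle, and cells outside that niche that use Lrig1 would recombine too. The table's columns name the group but no sample title, so libraries are called by their column names, with 4F, 4M and 7F as controls and 1M, 2M, 3F and 6F as Zfp750_KO. Nothing in the labels says that each library is 1 animal, so the spread behind each p-value is that between libraries and may be technical.

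The complement system is a protease cascade that tags surfaces with C3 fragments. In the classical pathway C1q carries the proteases C1r and C1s. C1s cleaves C4 and C2, and the fragments assemble into a convertase that cleaves C3. Factor B, the product of Cfb, builds the convertase of the alternative pathway, Serping1 encodes the C1 inhibitor that blocks C1r and C1s, and C3ar1 and C5ar1 encode the receptors of the small fragments C3a and C5a on myeloid cells. Most complement of plasma is made in liver, while fibroblasts, keratinocytes and macrophages make components locally.

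The libraries differed in cell content within both groups, and the members have to be read beside it. The macrophage score, the mean log2 value of 20 macrophage and monocyte genes, was 5.92 (4F), 10.1 (4M) and 10.4 (7F) for controls. The Zfp750_KO libraries had 7.41 (1M), 7.11 (2M), 11.2 (3F) and 10.9 (6F). The fibroblast score, the mean of 15 fibroblast genes, was 14.3 (4F), 13.8 (4M) and 13.5 (7F) for controls. The Zfp750_KO libraries had 14.7 (1M and 2M), 12.3 (3F) and 12.6 (6F). Neither list holds a member, and none of the 20 and 15 genes was at 0 in any library. By a two-sided exact permutation test the scores differed between the groups by 0.38 (p = 0.857) and -0.32 (p = 0.657), and the smallest p possible is 0.0571. Summed per M of the library total, 12 keratinocyte markers were at 351 to 3131 in controls and 376 to 2910 in Zfp750_KO, against 91231 to 182284 and 19175 to 121542 for the fibroblast list. Fibroblast markers thus summed to more than keratinocyte markers in every library. In bulk RNA, fewer cells of a type and less RNA per cell cannot be told apart. Zfp750 itself was at 51.2 to 335 in controls and 10.1 to 48.9 in Zfp750_KO. The 335 is control 4F alone, and 7F was at 61.9. In the limma fits described below Zfp750 did not pass, with an adjusted p of 0.891 with the group alone and 0.0552 with the macrophage score.

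For 5 of the 8 members the RefSeq promoter table (build GRCm38.p6) holds a start site, and the 250 bases before it are shown, 5′ to 3′. C1s1 has 2 starts there, and the window of the one listed first is shown. C1ra and C1s1 are shown as the protease pair, both highest in Zfp750_KO 1M and lowest in 6F, though they ordered the controls differently. C3ar1 and C5ar1 are shown as the receptor pair with the widest ranges, and C3 as the component that varied little. Capitals mark matches to any of 8 motifs on either strand: NF-kB (core letters GGNNTTTCC), the interferon response element (core letters GAAANNGAA), the STAT element TTCNNNGAA, C/EBP TTGCNNAA, PU.1 GAGGAAGT, AP-1 TGANTCA, the TATA box TATAAA and the GC box GGGCGG.
C1ra (chr6:124512371-124512620, strand +): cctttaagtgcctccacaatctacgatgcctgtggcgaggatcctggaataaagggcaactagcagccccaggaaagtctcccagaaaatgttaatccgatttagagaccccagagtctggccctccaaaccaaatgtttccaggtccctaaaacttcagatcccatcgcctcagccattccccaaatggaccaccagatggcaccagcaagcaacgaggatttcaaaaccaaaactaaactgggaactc
C1s1 (chr6:124542360-124542609, strand -): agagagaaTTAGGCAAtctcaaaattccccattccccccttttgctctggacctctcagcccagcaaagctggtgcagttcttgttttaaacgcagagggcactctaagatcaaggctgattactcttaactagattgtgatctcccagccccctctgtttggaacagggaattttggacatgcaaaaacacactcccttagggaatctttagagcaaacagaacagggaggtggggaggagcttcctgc
C3 (chr17:57228137-57228386, strand -): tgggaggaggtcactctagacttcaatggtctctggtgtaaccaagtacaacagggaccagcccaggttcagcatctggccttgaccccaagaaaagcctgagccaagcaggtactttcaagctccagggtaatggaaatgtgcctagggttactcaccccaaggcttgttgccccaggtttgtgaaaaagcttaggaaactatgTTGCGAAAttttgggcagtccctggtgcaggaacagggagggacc
C3ar1 (chr6:122856158-122856407, strand -): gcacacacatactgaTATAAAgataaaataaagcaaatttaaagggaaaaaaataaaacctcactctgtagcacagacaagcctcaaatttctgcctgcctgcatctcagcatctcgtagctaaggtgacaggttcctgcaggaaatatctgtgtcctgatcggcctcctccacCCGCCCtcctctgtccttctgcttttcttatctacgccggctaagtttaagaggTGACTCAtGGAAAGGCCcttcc
C5ar1 (chr7:16259339-16259588, strand -): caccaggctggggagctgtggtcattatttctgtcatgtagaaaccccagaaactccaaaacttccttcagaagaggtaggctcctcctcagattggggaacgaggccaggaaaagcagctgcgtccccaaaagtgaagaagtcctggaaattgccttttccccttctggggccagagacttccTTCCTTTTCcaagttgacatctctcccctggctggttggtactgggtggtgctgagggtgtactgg
The C3 window holds 1 C/EBP match, 45 to 38 bases before the start, and the C1s1 window shown holds 1 at 242 to 235 bases. The window of the other C1s1 start, chr6:124542322-124542571, holds no match to any of the 8 motifs. A C/EBP match occurs in 9.56% of the 32851 promoter windows of this length. In C3ar1 an AP-1 match at 22 to 16 bases lies next to an NF-kB match at 14 to 6 bases, and these motifs occur in 6.75% and 4.93% of windows. C3ar1 also holds a GC box at 76 to 71 bases (32.7% of windows) and TATAAA at 235 to 230 bases (12.4% of windows). C5ar1 holds 1 match to the interferon response element at 66 to 58 bases (7.13% of windows), and the C1ra window holds none of the 8 motifs. The STAT element and PU.1, found in 7.02% and 2.44% of windows, have no match in the 5 windows shown. A match describes letters in these windows and was not tied to any value below.

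Per length, Serping1, C1s1, C3 and C1ra had the highest mean levels and the receptors the lowest. Levels between genes were compared per M of the library total and per kb of merged exon (GENCODE M21 lengths), as mean ± SD over all 7 libraries. Serping1 was at 189 ± 94.3, C1s1 at 127 ± 35.4, C3 at 123 ± 37.5, C1ra at 92.7 ± 36.1 and C4b at 63.9 ± 30.4. Cfb followed at 22.1 ± 5.88, C3ar1 at 21.0 ± 23.6 and C5ar1 at 14.8 ± 14.6. Neighbours in this order did not differ beyond their spread except C4b and Cfb, whose means were further apart than either SD although C4b reached down to 10.2. Cfb, at 13.0 to 28.7, lay below C1ra, at 42.0 to 152, without overlap.

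**Figure D1:**
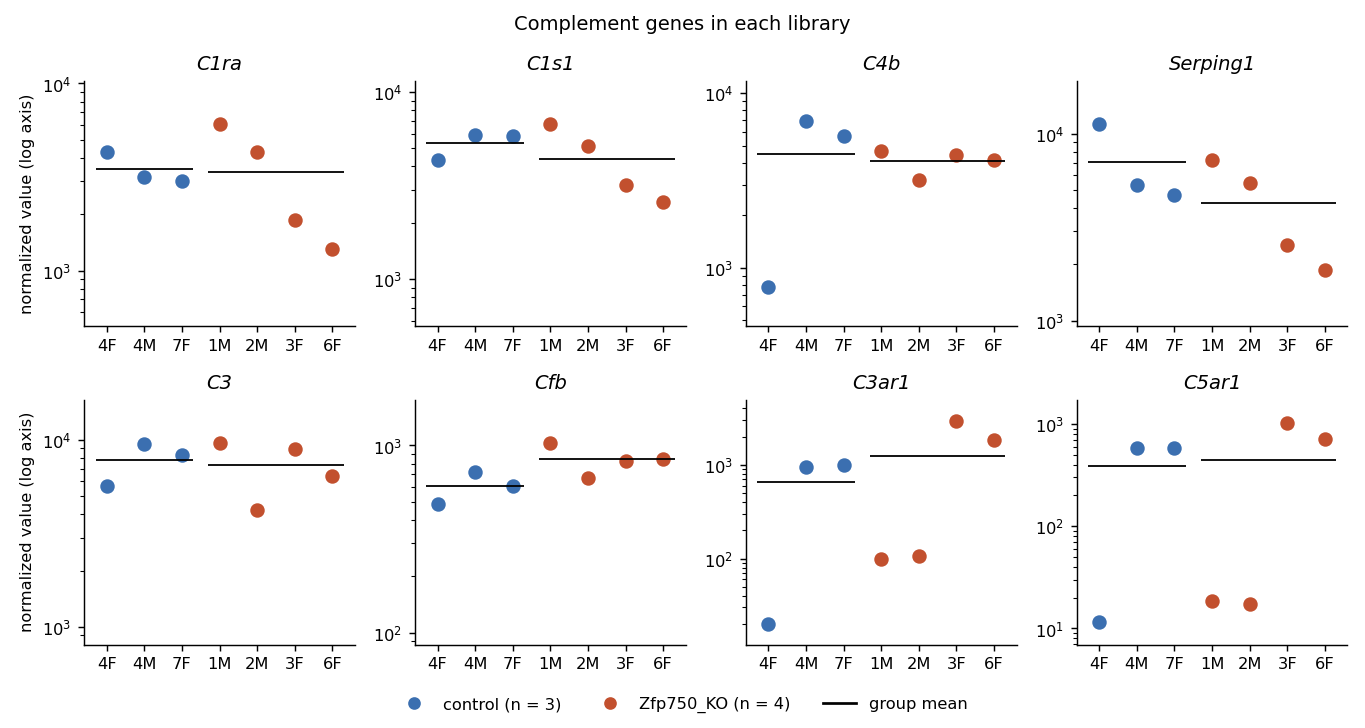
Normalized value (log axis) of each of the 8 complement genes in control (blue, n = 3) and Zfp750_KO (orange, n = 4) libraries, with black lines at the group means. C3 and Cfb spanned 2.29-fold and 2.14-fold over the libraries, whereas C3ar1 and C5ar1 were lowest in control 4F and low in Zfp750_KO 1M and 2M.

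The comparison of Zfp750_KO with control asks whether loss of Zfp750 in the labelled cells goes with other levels of these genes. No member passed an adjusted p of 0.05 in limma with the group as the only term, in either direction, and all 8 overlapped between the groups. Of the 18141 genes tested 0% passed there, while 1058, or 5.83%, had an unadjusted p under 0.05 and 7.1% had groups that did not overlap. At an unadjusted p under 0.05 the count of members was 0 of 8. Their median log2 difference was -0.21, against 0.02 over all genes tested. With the macrophage score held as a covariate, again 0 of 8 passed, where 3.69% of all genes did. At an unadjusted p under 0.05 that fit had 1 member higher (Cfb) and 2 lower (Serping1 and C5ar1), against 17.6% of all genes in either direction. All differences below are on the log2(value + 11.9) scale, Zfp750_KO minus control, which understates changes of low genes, and p-values are limma's adjusted over all genes.

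C1ra and C1s1 encode the proteases of the C1 complex. The normalized values of C1ra were 4320 (4F), 3151 (4M) and 3011 (7F) for controls and, for Zfp750_KO, 6061 (1M), 4284 (2M), 1864 (3F) and 1308 (6F). Zfp750_KO thus held both the highest and the lowest libraries. The means were 3494 ± 719 (SD, n = 3) and 3379 ± 2206 (SD, n = 4), and the log2 difference was -0.29 ± 0.53 (SE, adjusted p = 1.0). C1s1 had control values of 4310 (4F), 5904 (4M) and 5836 (7F) and Zfp750_KO values of 6736 (1M), 5116 (2M), 3172 (3F) and 2590 (6F). Again 1M was highest and 6F lowest, and the log2 difference was -0.37 ± 0.36 (SE, adjusted p = 1.0). C1ra per C1s1 was highest in control 4F (1.002), Zfp750_KO 1M (0.900) and 2M (0.837) and was 0.505 to 0.588 in the other 4 libraries. The libraries with the higher ratio are the 3 with the lower macrophage scores, and the groups overlapped. The near-identical copies C1rb and C1s2 reached at most 0.379% of C1ra and 0.190% of C1s1. How reads that fit both copies were counted is not known, so C1ra and C1s1 are uncertain to that extent.

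Serping1, the C1 inhibitor, had control values of 11234 (4F), 5335 (4M) and 4687 (7F). Its Zfp750_KO values were 7191 (1M), 5448 (2M), 2548 (3F) and 1875 (6F). Control 4F was the highest library and 3F and 6F lay below every control, while 1M and 2M overlapped with the controls. The means were 7086 ± 3607 (SD, n = 3) and 4266 ± 2491 (SD, n = 4), and the log2 difference was -0.82 ± 0.54 (SE, adjusted p = 1.0). Holding the macrophage score it was -0.69 ± 0.21 (SE, adjusted p = 0.118), and holding the fibroblast score -0.59 ± 0.25 (SE, adjusted p = 0.308). It stayed below 0 without each of the 7 libraries in the fit with the macrophage score, from -0.86 to -0.55, and passed there without control 4F (-0.84, adjusted p = 0.0222, where 8.88% of genes passed).

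C1ra, C1s1 and Serping1 were all lowest in the 2 libraries with the lowest fibroblast scores, Zfp750_KO 3F and 6F. The libraries form separate clusters in both scores, so no correlation across them is given. With the fibroblast score as the covariate the log2 difference was -0.06 ± 0.21 (SE) for C1ra and -0.25 ± 0.23 (SE) for C1s1.

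**Figure D2:**
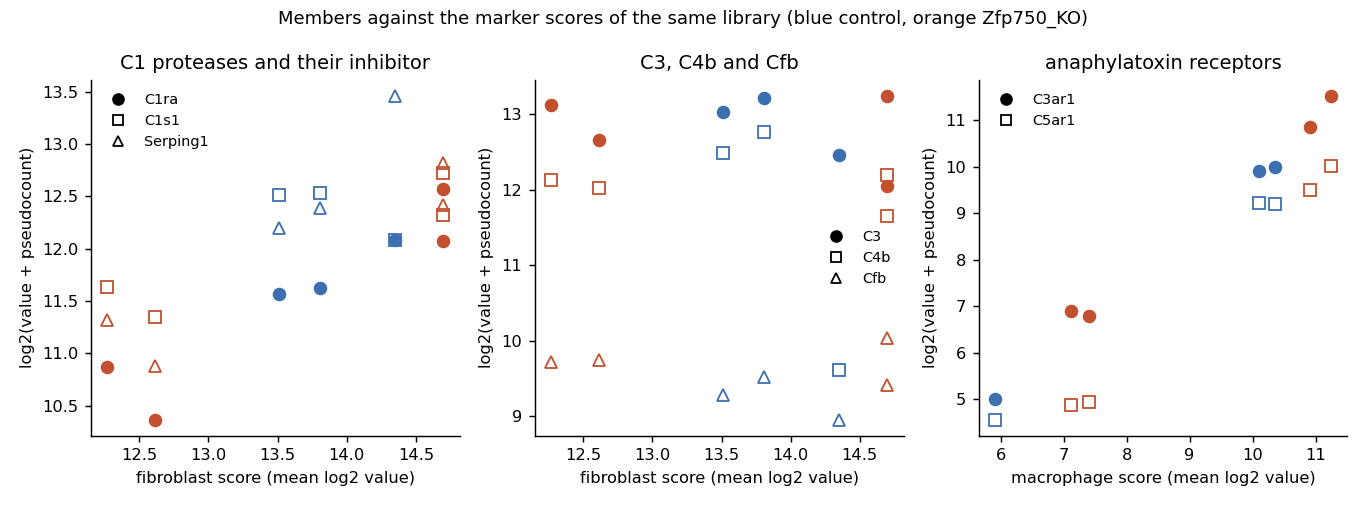
Log2(value + 11.9) of each member against the fibroblast score (left and middle) or the macrophage score (right) of the same library, blue for control and orange for Zfp750_KO. Levels of different genes are not comparable here, since they are not per length. The proteases and Serping1 were lowest at fibroblast scores of 12.3 and 12.6, and the receptors rose from the libraries at 5.92 to 7.41 on the macrophage score to those at 10.1 to 11.2.

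C4b encodes C4, which C1s cleaves. Its control values were 771 (4F), 6929 (4M) and 5721 (7F), and its Zfp750_KO values were 4669 (1M), 3189 (2M), 4447 (3F) and 4127 (6F). All Zfp750_KO libraries lay between control 4F and the other controls. The means were 4474 ± 3263 (SD, n = 3) and 4108 ± 652 (SD, n = 4), and the log2 difference was 0.37 ± 0.72 (SE, adjusted p = 1.0). Control 4F alone set its sign: without that library it was -0.63 (adjusted p = 0.597). Control 4F still held 995 reads of C4b, so the low value is not one of few reads. The adjacent copy C4a, which is nearly identical to C4b, was at 4.29 to 30.1 and made up 0.0918% to 1.78% of C4b. Reads that fit both copies could have been split, and C4b is uncertain to that extent.

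C3 is the protein on which all pathways converge. Its control values were 5629 (4F), 9469 (4M) and 8340 (7F), and its Zfp750_KO values were 9651 (1M), 4221 (2M), 8871 (3F) and 6426 (6F). High and low libraries occurred in both groups. The means were 7813 ± 1974 (SD, n = 3) and 7292 ± 2466 (SD, n = 4), and the log2 difference was -0.14 ± 0.35 (SE, adjusted p = 1.0). C3 varied 2.29-fold over libraries in which the fibroblast collagen Col1a1 ranged from 59036 to 1070000 and the leukocyte antigen Ptprc from 58.8 to 13422.

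Cfb encodes factor B, which binds C3b to form the alternative convertase. Control values of Cfb were 484 (4F), 718 (4M) and 609 (7F), and its Zfp750_KO values were 1035 (1M), 671 (2M), 831 (3F) and 847 (6F). Only 2M lay among the controls, below control 4M. The means were 603 ± 117 (SD, n = 3) and 846 ± 149 (SD, n = 4), and the log2 difference was 0.48 ± 0.22 (SE, adjusted p = 0.896). It was 0.46 ± 0.18 (SE, adjusted p = 0.225) with the macrophage score. In the 18 alternatives to the first fit and the 19 to the second it lay between 0.29 and 0.68, above 0 in each, and passed in none.

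C3ar1, the C3a receptor, had control values of 20.1 (4F), 948 (4M) and 1006 (7F) and Zfp750_KO values of 98.8 (1M), 106 (2M), 2928 (3F) and 1832 (6F). Control 4F was lowest and 3F highest, a 145-fold range that crossed the groups. C5ar1, the C5a receptor, had control values of 11.6 (4F), 586 (4M) and 577 (7F) and Zfp750_KO values of 18.7 (1M), 17.4 (2M), 1020 (3F) and 709 (6F). It rested on 15 to 18 reads in 4F, 1M and 2M. The 3 low libraries of both receptors are those with macrophage scores of 5.92 to 7.41. With the group alone the log2 differences were 0.71 ± 1.67 (SE) and -0.33 ± 1.74 (SE), both with an adjusted p of 1.0. In the fit holding the macrophage score C3ar1 differed by 0.28 ± 0.16 (SE, adjusted p = 0.443) and C5ar1 by -0.78 ± 0.22 (SE, adjusted p = 0.0871), and neither passed. The values of C5ar1 in 3F and 6F lay above all controls and those in 1M and 2M above control 4F. Within each cluster of libraries C5ar1 was thus higher in Zfp750_KO, against the sign of that estimate. The macrophage scores were higher there too. They were 7.41 (1M) and 7.11 (2M) against 5.92 (4F), and 11.2 (3F) and 10.9 (6F) against 10.1 (4M) and 10.4 (7F). The part of these score gaps in the estimate was not tested.

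**Figure D3:**
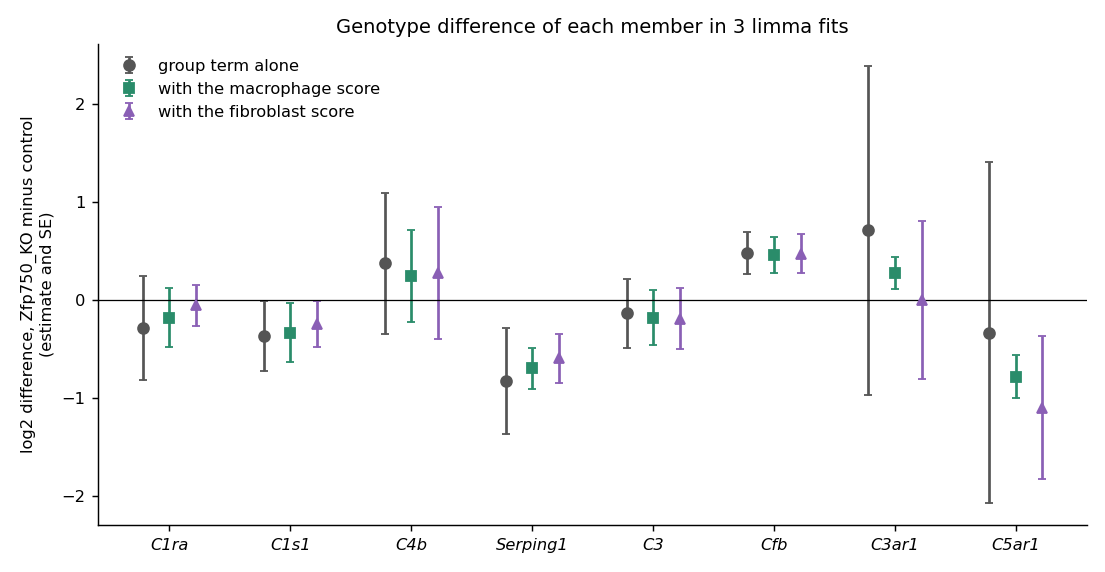
Log2 difference of Zfp750_KO minus control with its SE for each member in limma fits with the group alone (grey), with the macrophage score (green) and with the fibroblast score (purple). The SE of C3ar1 was 1.67 with the group alone and 0.16 with the macrophage score, and no estimate in the plot passed an adjusted p of 0.05.

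Ratios between members of a role were compared next, 5 in all, each by a two-sided exact permutation test on the log2 ratio. C5ar1 per C3ar1 was 0.577 (4F), 0.618 (4M) and 0.574 (7F) for controls and, for Zfp750_KO, 0.189 (1M), 0.164 (2M), 0.348 (3F) and 0.387 (6F). Every Zfp750_KO library lay below the controls. The ratio in 4F rests on 15 reads of C5ar1 and 26 of C3ar1, so its closeness to 4M and 7F is uncertain. In 1M and 2M the ratio rests on 18 reads of C5ar1 each, against 95 and 110 of C3ar1. The log2 difference was -1.21 (exact permutation p = 0.0571, the smallest possible, and 0.143 adjusted over the 5 ratios), and it was -1.41 to -1.001 without each library in turn. Cfb per C3 was 0.0859 (4F), 0.0758 (4M) and 0.0730 (7F) for controls and, for Zfp750_KO, 0.107 (1M), 0.159 (2M), 0.0936 (3F) and 0.132 (6F). Every Zfp750_KO library lay above the controls, with a log2 difference of 0.63 (exact permutation p = 0.0571, or 0.143 adjusted). The design cannot reach an adjusted p under 0.05 for any of these ratios. The ratios were added later than the fits, and the adjustment does not cover the choice of pairs. How often ratios of other gene pairs separate the groups was not tested. C1ra per C1s1, C4b per C3 and Serping1 per C1s1 overlapped between the groups, with an adjusted exact permutation p of 0.886 each.

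**Figure D4:**
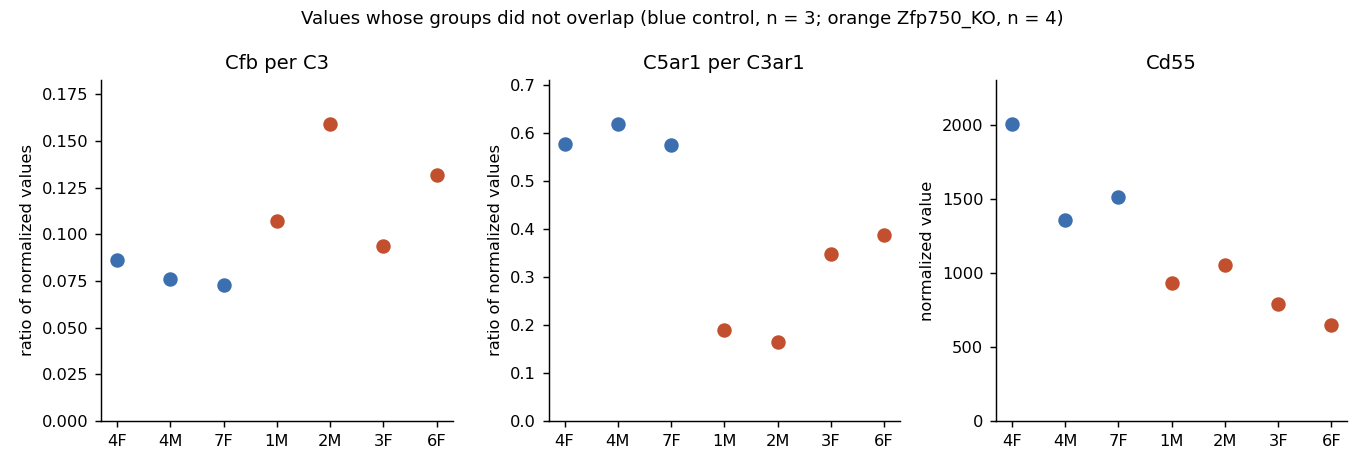
Ratio of the normalized values of Cfb and C3 (left), of C5ar1 and C3ar1 (middle), and normalized value of Cd55 (right) in each library, blue for control (n = 3) and orange for Zfp750_KO (n = 4). In each panel the groups do not overlap: Cfb per C3 was at most 0.0859 in controls and at least 0.0936 in Zfp750_KO.

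The other complement genes were taken from a list of 46, of which 38 had a row and 28 could be tested. In limma with the group alone 0 of 28 passed. At an unadjusted p under 0.05 there was 1 of 28, against 5.83% of all genes. Groups did not overlap for 1 of 28, against 7.1% of all genes, and both counts are Cd55. Holding the macrophage score, 2 of 28 were lower and 0 higher, where 2.26% and 1.43% of all genes passed in these directions. At an unadjusted p under 0.05, 8 were lower and 2 higher, against 9.32% and 8.32% of all genes. Itgam, among the 8, is also 1 of the 20 genes of that score. The median log2 difference of the 28 was 0.17 in that fit, against 0.02 over all genes. By role, those 10 were 3 of 7 regulators (Cd55, Cd46 and Vtn), all lower, 2 of 3 terminal components (C6 and C7), both lower, and 1 of 2 alternative components (Cfp), lower. Of 3 lectin genes Masp1 was higher and Fcna lower, of 7 receptors Itgax was higher and Itgam lower, and 0 of 6 classical components were among them. In control 4F and Zfp750_KO 1M and 2M, C6, C7 and Fcna rested on only 0 to 10 reads, and none of these genes passed the adjusted threshold.

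Cd55, decay-accelerating factor, is a membrane protein that dissociates C3 convertases on the cell's own surface. Its control values were 2002 (4F), 1354 (4M) and 1511 (7F), and its Zfp750_KO values were 933 (1M), 1051 (2M), 792 (3F) and 649 (6F). Every Zfp750_KO library lay below every control. The means were 1622 ± 338 (SD, n = 3) and 856 ± 174 (SD, n = 4). The log2 difference was -0.92 ± 0.23 (SE, adjusted p = 0.412) with the group alone. Cd55 fell by 0.87 ± 0.14 (SE, log2, adjusted p = 0.0122) in the fit holding the macrophage score, and by 0.85 (adjusted p = 0.0357) in that holding the fibroblast score, where 3.12% of all genes passed. The call with the macrophage score was lost without control 4M (-0.92, adjusted p = 0.0635) and without control 7F (-0.81, adjusted p = 0.0863), with differences about as large as in all 7 libraries. The table also lists Gm16083, a lncRNA on the opposite strand that overlaps Cd55, at a mean of 1.16% of it, and the strand setting of the counting is not given in the sources used here.

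Cfp encodes properdin, which stabilises the alternative convertase. Its control values were 38.7 (4F), 1466 (4M) and 1586 (7F), and its Zfp750_KO values were 91.5 (1M), 60.9 (2M), 1753 (3F) and 1842 (6F), so the groups overlapped. In the fit holding the macrophage score its log2 difference was -0.75 ± 0.16 (SE, adjusted p = 0.0364). Of the 7 fits without 1 library 5 lost the call, all but those without control 4F and without Zfp750_KO 6F, and so did log2 Ptprc as the covariate (adjusted p = 0.131). The direction turned in control 4M and 7F and Zfp750_KO 3F and 6F alone, to 0.23 with the group term and 0.21 with the score. Zfp750_KO 3F and 6F lay above all controls and 1M and 2M above control 4F. The C1q chains C1qa, C1qb and C1qc, made by macrophages and named after their values were seen, had log2 differences of 0.14 ± 0.22, 0.24 ± 0.22 and 0.20 ± 0.23 (SE) in that fit. C1qb ranged from 29.4 in control 4F to 4799 in Zfp750_KO 3F.

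Masp1, a protease of the lectin pathway, is named here after its values were seen. Its control values were 1400 (4F), 499 (4M) and 576 (7F), and its Zfp750_KO values were 14358 (1M), 12274 (2M), 716 (3F) and 624 (6F). Zfp750_KO 1M and 2M stood far above the other 5 libraries, while 3F and 6F lay among the controls. The log2 difference was 2.00 ± 1.25 (SE, adjusted p = 1.0) with the group alone and 2.28 ± 0.56 (SE, adjusted p = 0.0614) with the macrophage score. With the fibroblast score the adjusted p was 0.00325 at a log2 difference of 2.60, a value that does not describe all Zfp750_KO libraries alike.

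**Figure D5:**
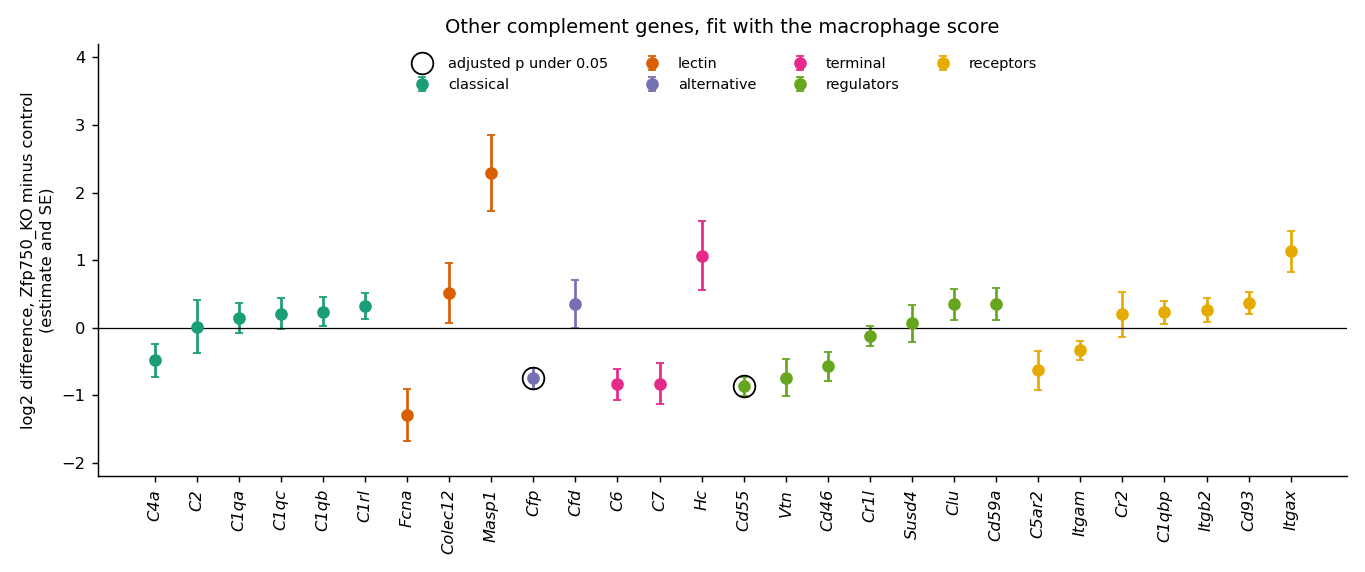
Log2 difference of Zfp750_KO minus control with its SE in the fit with the macrophage score for the 28 tested complement genes outside the 8, grouped by role. Circles mark Cd55 and Cfp, the 2 genes at an adjusted p under 0.05, and Masp1 has the highest estimate at 2.28.

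Control 4M and 7F and Zfp750_KO 3F and 6F, the libraries with Ptprc at 5652 or more, were also compared alone, 2 against 2. In that limma fit 4 of 8 members passed, where 12.2% of all genes did. Serping1 fell by 1.19 ± 0.19 (SE, log2, adjusted p = 0.00238), C1s1 by 1.03 ± 0.18 (adjusted p = 0.00337) and C1ra by 0.97 ± 0.19 (adjusted p = 0.00719). C3ar1 rose by 1.24 ± 0.22 (SE, adjusted p = 0.00351). C3 was at -0.23 ± 0.21, Cfb at 0.34 ± 0.18, C4b at -0.55 ± 0.18 and C5ar1 at 0.54 ± 0.20 (SE), with adjusted p-values of 0.0707 to 0.540. Cd55 fell by 0.98 ± 0.18 (SE, adjusted p = 0.00473). In these 4 libraries the fibroblast score moved with the genotype, from 13.8 and 13.5 to 12.3 and 12.6, and so did the macrophage score, from 10.1 and 10.4 to 11.2 and 10.9. If M and F in the column names stand for sex, both Zfp750_KO libraries here are F, and the controls are 1 M and 1 F. The Zfp750_KO libraries left out, 1M and 2M, are both M. The part of sex in this comparison was not tested, and few residual degrees of freedom remain in it. A fit of these 4 libraries with the macrophage score, which leaves 1 residual degree of freedom, called 0 of 8 members and 0.442% of all genes. There C1ra was at -1.71 ± 0.44 (SE, adjusted p = 0.125), C1s1 at -1.48 ± 0.40 (0.153), Serping1 at -1.66 ± 0.45 (0.152) and Cd55 at -1.63 ± 0.43 (0.131), while C3ar1 was at 0.052 ± 0.45 (0.978). The part of the fibroblast score in these 4 libraries was not tested. With both scores as covariates over all 7 libraries, 3 of 8 members passed (C4b higher, Serping1 and C5ar1 lower), where 10.8% of genes did, and array weights in the fit with the group alone called 1 (C5ar1, lower), where 20.9% did. Serping1 alone passed with the macrophage score and array weights, where 6.53% of genes did, and with that score and a sex term, where 7.07% did. No member passed with log2 Ptprc as the covariate, where 2.28% of genes did.

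For each member the 3 genes with the most similar pattern were found by Pearson's r of log2 values over the 7 libraries, among 11303 genes averaging 5 or more per M. Since the libraries form clusters, r is a measure of likeness only. C1ra was most like Siae (r = 0.992), Igfbp3 (0.990) and Tfpi (0.989), and C1s1 most like Adamts5 (0.995), Fndc1 (0.984) and Fam124a (0.978). Serping1 was most like Plekha6 (r = 0.997), Slc41a1 (0.987) and Dnajb1 (0.987). C4b was most like Apba1 (r = 0.986), Adam19 (0.974) and Tmem268 (0.958). C3ar1 was most like Plcl2, Lilrb4b and Ipcef1 (each r = 0.999), and C5ar1 most like Nlrp1b, Fgd2 and Etv3 (each r = 0.999). The least close matches were those of C3, to Spg21 (r = 0.932), G6pc3 (0.924) and Zbtb16 (0.902), and of Cfb, to Hk2 (0.970), Ehf (0.947) and Tmem132a (0.947).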

How the data were processed

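The authors deposited 1 table of normalized counts, used here as a signal and not as raw counts. Per the submitters' processing notes the tools were Partek 9.0.20.0202 and the aligner TopHat2 2.1.0. No source used here states the build, annotation or strand setting, so no positions from the table are printed. Checked on the values, each column is a set of reads divided by 1 factor: 78.0% to 79.5% of values under 200 reads were whole multiples within 0.02 reads. Whole reads were thus not recovered and no count test was run. Read totals from these steps were 9.09 to 17.1 M per library, and reads quoted for a gene are rounded values over the step.

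The filter kept 18141 genes that reached 1 per M of the column total in 3 or more libraries. Values were analysed as log2(value + 11.9), the pseudocount being 1 per M of the median column total, with limma 3.58.1 in R 4.3.3 (eBayes with trend, Benjamini-Hochberg, threshold 0.05), the group alone and with the macrophage score. The fits were tested on simulated data in which libraries did not differ in cell content. That test therefore cannot show how the fits behave with the unequal cell content seen here. The members, lists and fits were chosen with earlier results of these data known; the ratios were added later. Of the listed complement genes, 1 is not reported here and was left out of the counts. All 8 members were named, other complement genes where they passed in either fit, and Masp1, the C1q chains and genes at an unadjusted p under 0.05 after their values were seen. Other pseudocounts, filters, scalings, moderation, weights, a sex term read from M and F in the column names, covariates and left-out libraries were tried. Columns could not be tied to sample titles and have no replicate numbers.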

Additional observations from a re-analysis of the deposited data

How the results depend on the processing

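No paired analysis was possible because the columns of the table carry no replicate numbers of the sample titles. Of 18 alternatives to the fit with the group alone, array weights called 1 member (C5ar1, lower) and 14 other complement genes, where 20.9% of all genes passed. The libraries with high Ptprc alone called 4 and 9, where 12.2% of all genes passed. The fibroblast score called 0 and 2, where 3.12% of all genes passed. All other alternatives called none of either. With the macrophage score, 1 member passed with array weights and 1 with a sex term (Serping1 both times, where 6.53% and 7.07% of all genes passed), 2 without control 4F (8.88%), and 3 with both scores, where 10.8% of genes passed: C4b (0.50), Serping1 (-0.65) and C5ar1 (-0.85). The count of other genes, 2 there, was 5 with a sex term, 6 with both scores, 1 with Ptprc as the covariate (2.28%) and 0 in the high-Ptprc libraries (0.442%). It was 0 to 5 without each library: 5 without control 4F, 0 without control 4M (0.889% of all genes) or 7F (1.11%), and 1 without Zfp750_KO 1M (2.5%), 2M (1.96%) or 3F (2.32%), against 3.69% of all genes in all 7 libraries. Between 0 and 2 members passed without each library.

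In no alternative did a difference pass the threshold with the sign opposite to that of the fit it varies. Some of the genes below did pass with the other sign. Cfp passed in the fit with the macrophage score (-0.75) and C4b with both scores (0.50). In the high-Ptprc libraries with the group alone, C1ra (-0.97), Serping1 (-1.19) and C3ar1 (1.24) passed. With array weights and the group alone C5ar1 passed at -3.55. The signs of these differences thus depend on the setting. With array weights and the group alone, C1ra was at 0.49, C4b at -0.52, Serping1 at 0.10 and C3ar1 at -2.40. In the high-Ptprc libraries C4b was at -0.55, C5ar1 at 0.54 and Cfp at 0.23. With the macrophage score C4b was at -0.20 with array weights, -0.017 with a sex term and -0.38 in the high-Ptprc libraries, where Cfp was at 0.21. Without each library, the group alone gave -0.36 to 0.10 for C3, -0.65 to 0.080 for C1ra, -0.63 to 0.95 for C4b, -0.94 to 1.56 for C3ar1, -1.88 to 0.49 for C5ar1 and -1.96 to 0.53 for Cfp. With the macrophage score the ranges were -0.47 to 0.049 for C3, -0.58 to 0.035 for C1ra and -0.58 to 0.65 for C4b. The macrophage score difference ranged from -1.06 to 1.16 and the fibroblast score difference from -0.70 to 0.11. For the ratios the ranges were -0.089 to 0.39 for C1ra per C1s1, -0.27 to 0.93 for C4b per C3 and -0.77 to 0.082 for Serping1 per C1s1. Where no value above shows it, the cause was not tested. C5ar1 is limited by its depth of 15 to 18 reads in 3 libraries.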
